A study of Oryza sativa with 10 samples.

Results

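The peptide and low-affinity nitrate transporter family was examined in rice root RNA-Seq libraries as the 53 loci, of 37869 in the table, whose deposited description contains peptide transporter, oligopeptide or nitrate transporter. The words matched 56 loci, and 3 nitrate transporter loci among these were set aside by the same rule. Loci described only in other words, such as POT family protein, were not members, so the set is partial. The 53 loci carried 63 annotated transcripts, whose FPKM values (fragment numbers that the authors scaled for transcript length and for the mapped fragments of the library) were added up per locus. By description, 23 were peptide transporters of the PTR type, 8 were named only for an oligopeptide transporter domain, 8 were nitrate transporters and 14 were oligopeptide transporters of the OPT type. One of the nitrate transporters, Os01g0547600, is named after an NRT2-type, high-affinity carrier of Arabidopsis. It averaged 0.126 FPKM.

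Roots of Oryza sativa cv. Illmi were profiled at 20 days of age per the labels, as 5 groups of 2 libraries. The 4 transgenic groups were RCc3:myc-OsNAC5, RCc3:OsNAC6-myc, RCc3:myc-OsNAC9 and RCc3:OsNAC10-myc, written here as the OsNAC5, OsNAC6, OsNAC9 and OsNAC10 lines. Each overexpressed one transcription factor of the plant NAC family, fused to a MYC tag. Expression was driven by the root promoter of RCc3. The control was the nontransgenic plant (NT). As the labels write it, the tag precedes OsNAC5 and OsNAC9 and follows OsNAC6 and OsNAC10. The study chose lines with high levels of tagged protein and did not state how many lines lie behind the 2 libraries of a group, so a contrast with NT compares plant lines. All 4 comparisons with NT use the same 2 NT libraries. The study's results describe normal growth, its methods describe seedlings kept under water before harvest, and the extraction note in the labels gives a plant age of 2 weeks.

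Members of the PTR family (also called NRT1/PTR or NPF) are membrane carriers driven by protons. Some take up di- and tripeptides or single amino acids, others carry nitrate at low affinity, and several of the Arabidopsis proteins also move plant hormones. OPT-type carriers form a separate family that moves somewhat longer peptides, and their YSL branch carries metals bound to nicotianamine. In roots such proteins serve in the uptake of nitrate and organic nitrogen and in loading and unloading of the vascular tissue.

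Total FPKM per library lay between 730218 and 789304. The FPKM table holds no read numbers, and those that the study gives separately were not used here. Ratios of the lowest values gave an inferred depth of 1.56 for NT replicate 2 relative to NT replicate 1. For the 8 line libraries it was 0.923 to 1.48. The estimate is rough, since for NT replicate 2 only 22.0% of the 1920 transcripts compared lay at that ratio. Replicates correlated at 0.982 in the OsNAC6 line and at 0.987 to 0.995 in the other groups, across loci. Among tested members the median difference between replicates was 0.227 (log2) in the OsNAC6 line, 0.159 in OsNAC5, 0.139 in OsNAC9, 0.0691 in OsNAC10 and 0.111 in NT. The 3 root markers examined (RCc3 and the silicon transporters Lsi1 and Lsi2) summed to 2733 to 3963 FPKM in the lines and to 3236 and 3243 FPKM in NT. None was called in any line, though RCc3 was above NT by 0.45 (log2) in OsNAC10 (limma adjusted p = 0.0442), under 1.5 fold. The 18 loci of chlorophyll-binding proteins and the small Rubisco subunit, which mark green tissue, summed to 8.59 to 15.6 FPKM in the lines and to 11.3 and 13.5 FPKM in NT, with 4 to 8 of the 18 at 0 in a library. Of the 6 that were tested, 1 was lower in OsNAC6, 1 higher in OsNAC9 and 1 lower in OsNAC10, and their part in the results was not tested.

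The family was dominated by a few loci. A mean of at least 10 FPKM over the 10 libraries was reached by 11 members, 14 lay between 1 and 10 FPKM, 10 lay between 0.5 and 1 FPKM, and 18 lay below 0.5 FPKM and were not tested. Of these 18, 4 were listed at 0 in every library and the highest mean was 0.481 FPKM. One of them, Os03g0719900, was listed at 1.96 FPKM in OsNAC10 replicate 2, nearly all of it from a transcript listed at 4.9e-05 FPKM or less in the other 9 libraries. In OsNAC10 replicate 1 the locus was at 7e-06 FPKM. Tested members made up 20 of the 23 PTR loci, 3 of the 8 loci known only by the domain, 4 of the 8 nitrate transporters and 8 of the 14 OPT loci. The highest mean belonged to the nitrate transporter Os03g0687000 (60.6 FPKM), ahead of the OPT locus Os02g0695800 (40.6 FPKM) and the PTR loci Os06g0706400, Os01g0871600 and Os11g0235200 (26.7, 26.5 and 25.2 FPKM).

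**Figure D1:**
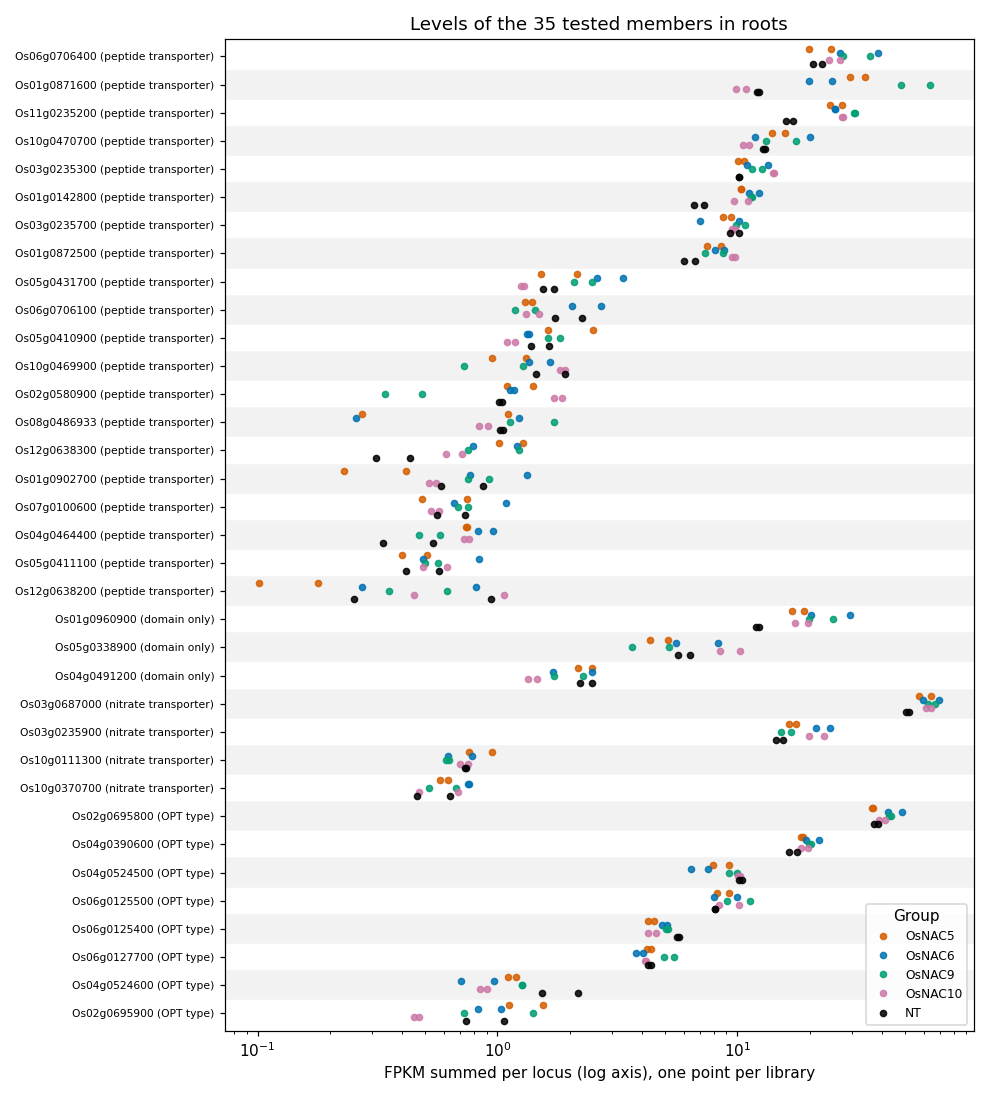
FPKM per locus (log axis) of the 35 tested members, with one point per library coloured by group, and rows ordered by class and by mean within a class. Levels run from about 0.1 FPKM at Os12g0638200 to 69.5 FPKM at Os03g0687000, and for most rows the 5 groups overlap.

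Added over the 53 members, transcript levels were above those of NT in every line. The sum was 327 and 338 FPKM in the OsNAC5 line, 385 and 355 FPKM in OsNAC6, 383 and 409 FPKM in OsNAC9 and 326 and 346 FPKM in OsNAC10, against 282 and 286 FPKM in NT. As a share of total FPKM this was 0.0437% to 0.0533% in the lines and 0.0384% and 0.0392% in NT. Every line library lay above both NT libraries. The OsNAC5 and OsNAC10 libraries overlapped each other, as did those of OsNAC6 and OsNAC9, and the first pair of lines lay below the second. Without Os01g0871600, the locus that changed most, the sum was 298 to 361 FPKM in the lines and 270 and 274 FPKM in NT. By class, PTR loci summed to 128 to 201 FPKM in the lines and 108 and 110 FPKM in NT, and nitrate transporters to 74.9 to 95.6 FPKM in the lines and 67.6 and 68.4 FPKM in NT. Loci known only by the domain summed to 23.5 to 40.7 FPKM in the lines and 20.2 and 20.9 FPKM in NT, and OPT loci to 83.6 to 97.3 FPKM in the lines and 84.3 and 88.7 FPKM in NT, where the groups overlapped. These sums are descriptions without a test. In whole roots, fewer cells of a type and less RNA per cell cannot be told apart.

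To ask which members changed, each line was compared with NT on log2(FPKM + 1) with limma. A call needed a Benjamini-Hochberg adjusted p under 0.05 over the 26687 loci tested and a change of at least 1.5 fold. On this scale the change of low loci is understated. In the OsNAC5 line 3 of 35 members were higher and 0 lower, where 2.12% and 3.22% of all loci tested were called. In the OsNAC6 line 5 members were higher and 1 lower (6.23% and 8.07% of all loci). In the OsNAC9 line 4 were higher and 0 lower (5.17% and 5.58%), and in the OsNAC10 line 1 was higher and 1 lower (5.39% and 11.2%). At an unadjusted limma p under 0.05 and any size of change, 5 members were negative in OsNAC5 and 4 in OsNAC9, where 0 were called lower, and none of these reached 1.5 fold. That is 14.3% and 11.4% of the tested members, against 9.88% and 16.1% of all loci. In OsNAC6 and OsNAC10, 2 and 4 members were negative (5.71% and 11.4%, against 19.7% and 21.8% of all loci). Positive at this p were 8, 13, 10 and 10 members in OsNAC5, OsNAC6, OsNAC9 and OsNAC10, or 22.9%, 37.1%, 28.6% and 28.6%. Of all loci, 11.5%, 20.6%, 18.5% and 21.9% were positive. With each library centred on its median the OsNAC10 counts were 5 higher and 0 lower (7.81% and 9.60% of all loci), and with quantile normalization they were 4 and 0 (6.33% and 9.88%). By class, PTR loci gave 3, 4, 3 and 1 of the higher calls in OsNAC5, OsNAC6, OsNAC9 and OsNAC10 and 0 of the lower calls, and loci known only by the domain gave 0, 1, 1 and 0 higher. OPT loci gave the lower calls, 1 each in OsNAC6 and OsNAC10, and nitrate transporters gave 0 calls. The called members were 8.57%, 14.3%, 11.4% and 2.86% of those tested for the higher direction, in the order OsNAC5, OsNAC6, OsNAC9 and OsNAC10. In the same order the median log2 change of the members was 0.05, 0.18, 0.10 and 0.06, and that of all loci was 0.03, 0.01, 0.02 and 0.03.

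Over the 4 lines 7 members were called at least once, or 20% of those tested, against 24.9% of all loci. Of these 7, 6 were higher and 1 was lower, and 0 went in opposite directions in different lines. One member was higher in all 4 lines, where 0.528% of all loci were, and 0 were lower in all 4, where 2% of all loci were. In 7 members (20%) all 8 line libraries lay above both NT libraries, against 15.7% of all loci, and in 2 members all 8 lay below, against 15.3% of all loci. At any size of change with an adjusted p under 0.05, the members higher and lower were 4 and 0 in OsNAC5 (3.56% and 4.46% of all loci), 10 and 2 in OsNAC6 (14.2% and 14.4%), 6 and 1 in OsNAC9 (10.4% and 10%) and 8 and 3 in OsNAC10 (15.1% and 17.4%).

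**Figure D2:**
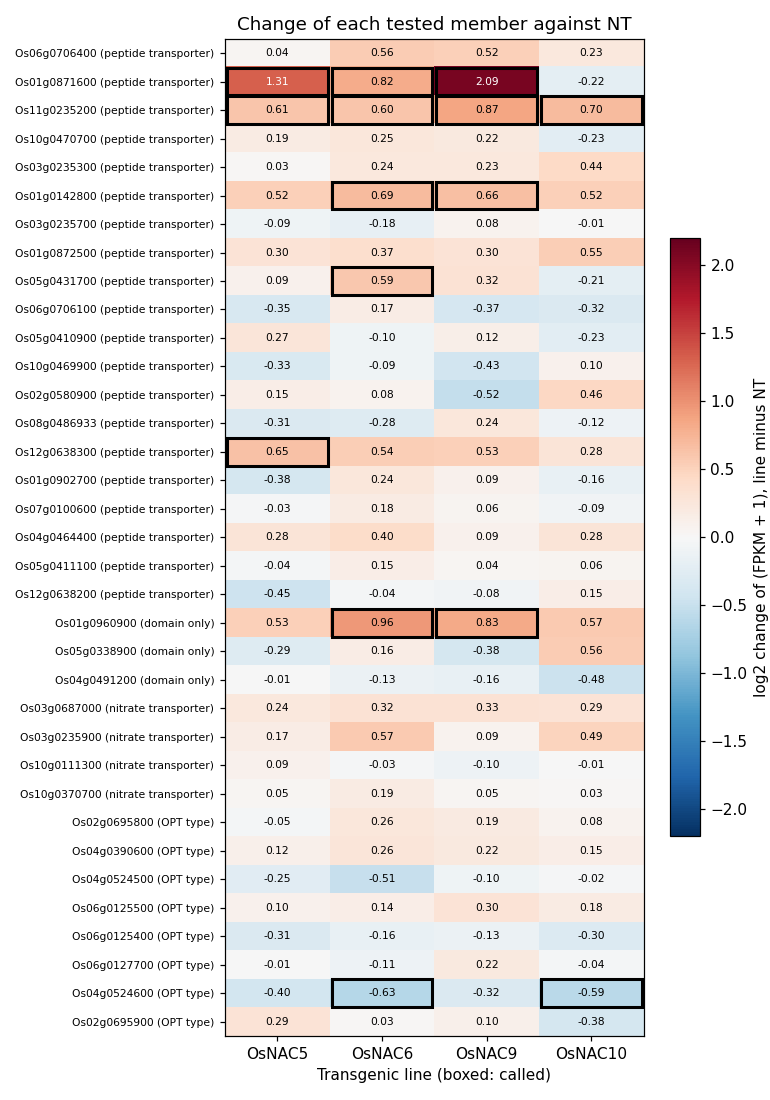
Log2 change of (FPKM + 1) against NT for the 35 tested members in the 4 lines, red for above and blue for below NT, with called values boxed. Boxes lie mostly among peptide transporters, the deepest value is 2.09 for Os01g0871600 in the OsNAC9 line, and Os11g0235200 is boxed in all 4 columns.

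The largest change in the family was that of Os01g0871600 on chromosome 1, annotated as similar to the Arabidopsis peptide transporter PTR2-B and named OsPOT in the study's list of bound genes. Its level was 29.6 and 34.1 FPKM in the OsNAC5 line, 24.8 and 19.9 FPKM in OsNAC6, 47.9 and 63.5 FPKM in OsNAC9 and 9.85 and 10.8 FPKM in OsNAC10, against 12.1 and 12.3 FPKM in NT. Libraries of 3 lines lay above NT without overlap, and both OsNAC10 libraries lay below it. The log2 change was 1.31 in OsNAC5 (adjusted p = 0.000776), 0.82 in OsNAC6 (adjusted p = 0.0051) and 2.09 in OsNAC9 (adjusted p = 3.34e-05), each with an SE of 0.15 in limma. In OsNAC10 it was -0.22 (adjusted p = 0.289) and was not called. The 3 calls held when any 1 library was left out.

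In the part at hand, the study's ChIP-Seq table ties fragments of DNA bound by a tagged OsNAC protein to 2 members, Os01g0871600 and Os12g0638300. The study built this table from loci of genes raised more than 1.5 fold in the same RNA-Seq data. A call of either member is therefore not independent of its listing. The fragments are shown because both members were called in at least 1 line. For its direct targets the study went on with loci in promoters and upstream untranslated regions, and not with loci in exons. NAC proteins recognise sites around the core CACG, which reads CGTG on the other strand, and capitals mark these letters. The first fragment lies in the promoter of Os01g0871600 at chr1:37794538-37794684 and the second in an exon of Os12g0638300 at chr12:27360175-27360331 (IRGSP 1.0, strand not stated).
Os01g0871600 promoter: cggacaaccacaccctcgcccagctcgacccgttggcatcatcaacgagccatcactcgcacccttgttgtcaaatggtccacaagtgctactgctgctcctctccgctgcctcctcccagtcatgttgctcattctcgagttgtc
Os12g0638300 exon: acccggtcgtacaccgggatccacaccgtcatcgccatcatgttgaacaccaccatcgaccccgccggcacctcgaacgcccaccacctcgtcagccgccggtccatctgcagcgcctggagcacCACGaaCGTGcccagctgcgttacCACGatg
The promoter fragment had 146 letters for a listed span of 147 positions, and held 0 cores on either strand. The exon fragment had 156 letters for a span of 157 and held 3 cores, 2 as CACG and 1 as CGTG. Of the 144 listed fragments of 146 letters, 51.4% held a core, and of all 456 fragments in the part of the table at hand, 60.5% did. Another fragment, in an exon of Os01g0871600 at chr1:37797206-37797352, also held 0 cores. A match is a description of letters, and binding was not measured in the libraries analysed here.

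Os11g0235200 on chromosome 11, a PTR transporter annotated with panicle elongation, was the member higher in all 4 lines. It was at 24.2 and 27.3 FPKM in the OsNAC5 line, 25.5 and 25.6 FPKM in OsNAC6, 31.0 and 30.7 FPKM in OsNAC9 and 27.7 and 27.2 FPKM in OsNAC10, against 17.1 and 15.9 FPKM in NT. All 8 line libraries lay above both NT libraries. Replicates were close to each other in OsNAC6, OsNAC9 and OsNAC10 and further apart in OsNAC5. The log2 change was 0.61 in OsNAC5 (adjusted p = 0.00207), 0.60 in OsNAC6 (adjusted p = 0.00121), 0.87 in OsNAC9 (adjusted p = 0.000185) and 0.70 in OsNAC10 (adjusted p = 0.000481), with an SE of 0.0827. The F test among the 4 lines was not passed (adjusted p = 0.126). The values for OsNAC5 and OsNAC6 were close to the limit of 1.5 fold. In OsNAC5 the change was 0.53 without OsNAC5 replicate 2 and 0.56 without NT replicate 2, and in OsNAC6 it was 0.55 without NT replicate 2, each under 1.5 fold with an adjusted p of 0.0202 to 0.0364.

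Os01g0142800, on the same chromosome as Os01g0871600 and described as similar to a peptide transporter, was at 10.3 FPKM in both OsNAC5 libraries, 12.3 and 11.2 FPKM in OsNAC6, 11.5 and 11.4 FPKM in OsNAC9 and 9.66 and 11.0 FPKM in OsNAC10, against 6.60 and 7.22 FPKM in NT. Here too every line library lay above both NT libraries. It was higher in OsNAC6 (log2 change 0.69, adjusted p = 0.00141) and OsNAC9 (0.66, adjusted p = 0.00229). In OsNAC5 and OsNAC10 the change was 0.52 (adjusted p = 0.0128 and 0.0049), under 1.5 fold. The F test among lines gave an adjusted p of 0.384. Without OsNAC10 replicate 1 the OsNAC10 value was 0.61 (adjusted p = 0.0107), past the limit.

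At lower levels, 2 further PTR loci were called in 1 line each, and both were picked out after their values had been seen. Os05g0431700, also similar to PTR2-B, was at 1.51 and 2.15 FPKM in OsNAC5, 3.34 and 2.60 FPKM in OsNAC6, 2.09 and 2.48 FPKM in OsNAC9 and 1.26 and 1.29 FPKM in OsNAC10, against 1.55 and 1.72 FPKM in NT. The OsNAC6 libraries were the highest and the OsNAC10 libraries the lowest. The change was 0.59 in OsNAC6 (adjusted p = 0.017), and 0.09, 0.32 and -0.21 in OsNAC5, OsNAC9 and OsNAC10 (adjusted p = 0.775, 0.155 and 0.291). The OsNAC6 call was lost without OsNAC6 replicate 1 (0.45, adjusted p = 0.0719), without NT replicate 1 (0.54, adjusted p = 0.103) and without NT replicate 2 (0.63, adjusted p = 0.0699), and in a fit of the OsNAC6 and NT libraries alone (0.59, adjusted p = 0.0525).

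Os12g0638300 was at 1.02 and 1.28 FPKM in OsNAC5, 1.20 and 0.791 FPKM in OsNAC6, 0.755 and 1.23 FPKM in OsNAC9 and 0.608 and 0.715 FPKM in OsNAC10, against 0.430 and 0.313 FPKM in NT. All line libraries lay above NT, at levels of about 1 FPKM or less. The change was 0.65 in OsNAC5 (adjusted p = 0.0336) and was called. It was 0.54 in OsNAC6 (adjusted p = 0.029) and 0.53 in OsNAC9 (adjusted p = 0.0391), under 1.5 fold, and 0.28 in OsNAC10 (adjusted p = 0.193). The OsNAC5 call was lost in 6 of the 10 fits that leave out 1 library, those without either OsNAC5, OsNAC10 or NT library, where the change was 0.56 to 0.73 and the adjusted p 0.0576 to 0.224. The locus was not tested with a filter of 1 FPKM. With a pseudocount of 0.1 the locus was called in 3 lines, at 1.41 in OsNAC5, 1.20 in OsNAC6 and 1.19 in OsNAC9.

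The other abundant PTR loci were not called. Os06g0706400, similar to PTR2-B and annotated as histidine transporting, was at 19.9 and 24.6 FPKM in OsNAC5, 38.7 and 26.8 FPKM in OsNAC6, 27.5 and 35.6 FPKM in OsNAC9 and 24.2 and 26.7 FPKM in OsNAC10, against 20.7 and 22.4 FPKM in NT. The OsNAC6, OsNAC9 and OsNAC10 libraries lay above NT, with wide gaps between the replicates of OsNAC6 and of OsNAC9. The changes were 0.04, 0.56, 0.52 and 0.23 (adjusted p = 0.943, 0.0518, 0.0818 and 0.376) in the order OsNAC5, OsNAC6, OsNAC9 and OsNAC10. Without OsNAC6 replicate 2 the OsNAC6 value was 0.82 (adjusted p = 0.00907). Os10g0470700 was at 13.9 and 15.8 FPKM in OsNAC5, 20.1 and 11.8 FPKM in OsNAC6, 13.2 and 17.5 FPKM in OsNAC9 and 10.5 and 11.2 FPKM in OsNAC10, against 13.0 and 12.7 FPKM in NT. Its OsNAC6 replicates lay on either side of NT, and the OsNAC6 change was 0.25 (adjusted p = 0.431), or 0.60 (adjusted p = 0.0211) without OsNAC6 replicate 2. Os03g0235300, similar to PTR2, was at 14.2 and 14.1 FPKM in OsNAC10 against 10.1 FPKM in both NT libraries, a change of 0.44 (adjusted p = 0.0133) that stayed under 1.5 fold, and at 10.1 to 13.4 FPKM in the 6 libraries of the other lines.

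**Figure D3:**
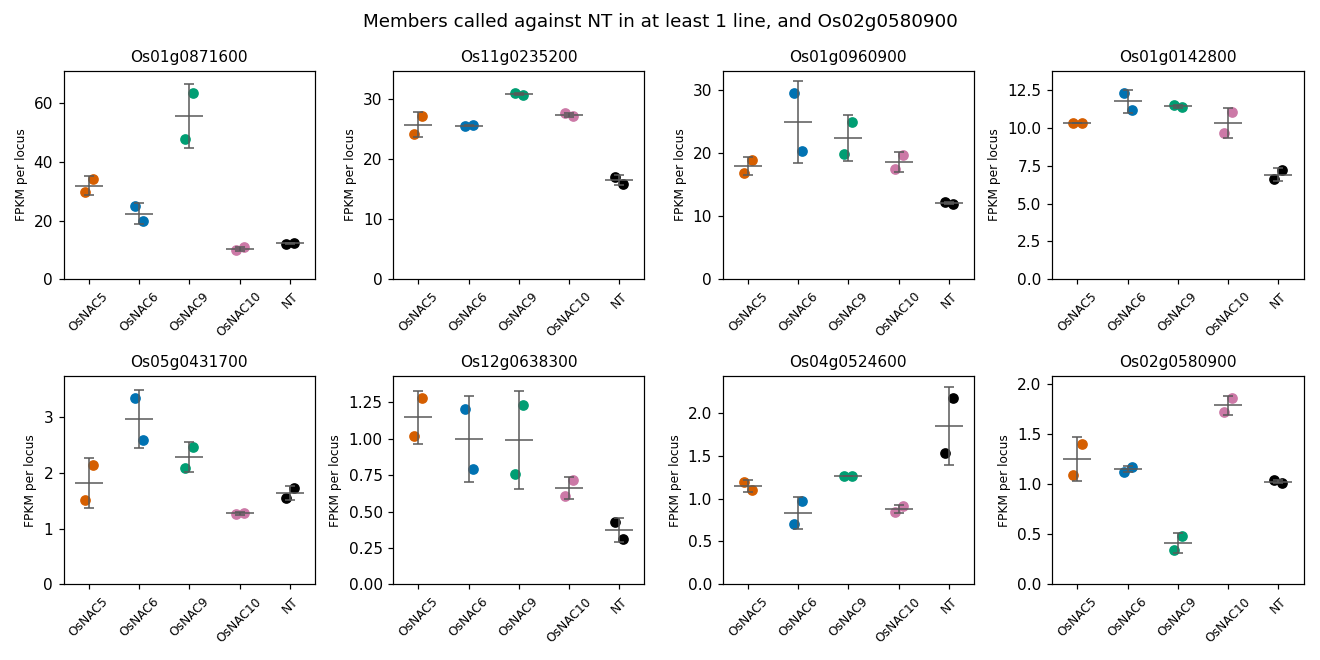
FPKM per locus in each group for the 7 members called against NT in at least 1 line and for Os02g0580900, with one point per library, the mean as a horizontal dash and the SD of 2 libraries as error bars. Os01g0871600 spans 9.85 FPKM in an OsNAC10 library to 63.5 FPKM in an OsNAC9 library. For Os11g0235200 all 8 line libraries, at 24.2 to 31.0 FPKM, stand above NT at 17.1 and 15.9 FPKM.

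Among loci known only by an oligopeptide transporter domain, Os01g0960900 on chromosome 1 was the most abundant. It was at 16.9 and 19.0 FPKM in OsNAC5, 29.5 and 20.3 FPKM in OsNAC6, 19.8 and 25.0 FPKM in OsNAC9 and 17.4 and 19.7 FPKM in OsNAC10, against 12.3 and 12.0 FPKM in NT. All line libraries lay above both NT libraries, which differed by little. The change was 0.96 in OsNAC6 (adjusted p = 0.00451) and 0.83 in OsNAC9 (adjusted p = 0.0115), and both were called. It was 0.53 in OsNAC5 (adjusted p = 0.114) and 0.57 in OsNAC10 (adjusted p = 0.034), under 1.5 fold, and the F test among lines was not passed (adjusted p = 0.228). The OsNAC9 call was lost without OsNAC9 replicate 2 (0.67, adjusted p = 0.0784), without NT replicate 1 (0.84, adjusted p = 0.0657) and without NT replicate 2 (0.81, adjusted p = 0.0773).

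Of the 4 tested nitrate transporters, 0 were called in any line with limma. At an unadjusted p under 0.05 and any size, 1 had a positive change in the OsNAC5 and in the OsNAC9 line, and 2 had one in the OsNAC6 and in the OsNAC10 line. Of all loci, 11.5%, 20.6%, 18.5% and 21.9% had one in OsNAC5, OsNAC6, OsNAC9 and OsNAC10. Os03g0687000, the most abundant member, was at 63.9 and 56.9 FPKM in OsNAC5, 59.3 and 69.5 FPKM in OsNAC6, 66.3 and 62.4 FPKM in OsNAC9 and 61.3 and 64.4 FPKM in OsNAC10, against 51.9 and 50.3 FPKM in NT. Every line library exceeded both NT libraries. The changes were small, 0.24, 0.32, 0.33 and 0.29 in OsNAC5, OsNAC6, OsNAC9 and OsNAC10 (adjusted p = 0.207, 0.0377, 0.0465 and 0.0491). A second transcript of this locus was listed at 11.6 FPKM in OsNAC6 replicate 1 and at 0.381 FPKM or less in the other 9 libraries. The locus sum of that library (59.3 FPKM) lay within the range of the other line libraries.

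Os03g0235900, similar to NRT1.2, a low-affinity nitrate transporter of Arabidopsis, lay close to the limit of size. It was at 17.6 and 16.4 FPKM in OsNAC5, 21.3 and 24.2 FPKM in OsNAC6, 16.8 and 15.2 FPKM in OsNAC9 and 19.95 and 23.0 FPKM in OsNAC10, against 14.5 and 15.4 FPKM in NT. The OsNAC6 and OsNAC10 libraries lay above all others. The change was 0.57 in OsNAC6 (adjusted p = 0.00536) and 0.49 in OsNAC10 (adjusted p = 0.00916), with 0.17 in OsNAC5 (adjusted p = 0.415) and 0.09 in OsNAC9 (adjusted p = 0.618). The lines differed by the F test (adjusted p = 0.0282). The OsNAC6 value passed 1.5 fold without OsNAC6 replicate 1 (0.66) and without NT replicate 2 (0.61), and was also called with a pseudocount of 0.1 (0.60), median centring (0.61) and quantile normalization (0.60), at adjusted p-values of 0.00382 to 0.00559 in the last 3. The OsNAC10 value passed 1.5 fold without OsNAC10 replicate 1 (0.59). The other tested nitrate transporters, Os10g0111300 and Os10g0370700, averaged 0.728 and 0.616 FPKM with log2 changes of -0.10 to 0.19 and no call.

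The OPT class held the only member that was called lower at the main settings, and 0 of its 8 tested loci were higher. Of all loci, 2.12% to 6.23% were higher and 3.22% to 11.2% lower in a line, and no difference between classes was tested. With a pseudocount of 0.1, Os04g0491200, known only by the domain, was also lower in OsNAC10 (-0.70, adjusted p = 0.035). The PTR locus Os02g0580900 was then lower in OsNAC9 (-1.15). Os04g0524600 on chromosome 4 was at 1.19 and 1.10 FPKM in OsNAC5, 0.702 and 0.966 FPKM in OsNAC6, 1.27 FPKM in both OsNAC9 libraries and 0.847 and 0.908 FPKM in OsNAC10, against 1.53 and 2.17 FPKM in NT. All 8 line libraries lay below NT, and the NT replicates were far apart. It fell by 0.63 on the log2 scale in OsNAC6 (adjusted p = 0.00825) and by 0.59 in OsNAC10 (adjusted p = 0.00937), and its change was -0.40 in OsNAC5 (adjusted p = 0.111) and -0.32 in OsNAC9 (adjusted p = 0.116). The OsNAC6 call was also lost in a fit of the OsNAC6 and NT libraries alone (-0.63, adjusted p = 0.0564). Both calls ended without NT replicate 2, at -0.47 (adjusted p = 0.0693) in OsNAC6 and -0.43 (adjusted p = 0.0776) in OsNAC10. They also ended at -0.53 without OsNAC6 replicate 1 and at -0.57 without OsNAC10 replicate 1, under 1.5 fold. With each library centred on its median the OsNAC10 change was -0.52, and with quantile normalization -0.49, again under 1.5 fold.

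The abundant OPT loci were not called. Os02g0695800, similar to Arabidopsis OPT4, was at 36.4 and 36.7 FPKM in OsNAC5, 48.6 and 42.3 FPKM in OsNAC6, 43.0 and 43.8 FPKM in OsNAC9 and 38.9 and 41.1 FPKM in OsNAC10, against 37.1 and 38.7 FPKM in NT. Its changes were -0.05 to 0.26 (adjusted p = 0.0525 in OsNAC6 and 0.146 to 0.804 in the other lines). Os04g0390600 was at 18.3 to 22.0 FPKM in the 8 line libraries and at 16.4 and 17.7 FPKM in NT, with changes of 0.12 to 0.26. Each of its line libraries lay above both NT libraries, and adjusted p-values were 0.0583 to 0.521. Os04g0524500, picked out after its values had been seen, neighbours Os04g0524600 on the chromosome and was at 6.40 and 7.53 FPKM in OsNAC6, against 10.1 and 10.5 FPKM in NT, a change of -0.51 (adjusted p = 0.00977) below the limit of size.

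To test whether the lines differed from each other, the 6 contrasts between lines were taken from the same fit. The F test among lines was passed by 6 members, 17.1% of those tested, against 18% of all loci. They were Os01g0871600, Os02g0580900, Os05g0431700, Os03g0235900, Os05g0338900 and Os04g0524500. Over the 6 contrasts 13 calls were made on members. These were 1 higher and 0 lower in OsNAC6 against OsNAC5 (1.54% and 2.06% of all loci), 1 and 1 in OsNAC9 against OsNAC5 (1.96% and 1.55%), 1 and 2 in OsNAC10 against OsNAC5 (2.34% and 6.72%), 1 and 1 in OsNAC9 against OsNAC6 (1.85% and 0.989%), 0 and 2 in OsNAC10 against OsNAC6 (1.57% and 3.39%) and 2 and 1 in OsNAC10 against OsNAC9 (2.74% and 6.47%). In OsNAC10 against OsNAC6, 1 member was higher at an adjusted p under 0.05 of any size, or 2.86% of those tested, against 2.73% of all loci.

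Os01g0871600 accounted for 5 of the 13 calls. It was lower in OsNAC10 than in OsNAC5 (log2 change -1.53, adjusted p = 0.000345), OsNAC6 (-1.04, adjusted p = 0.00428) and OsNAC9 (-2.31, adjusted p = 2.23e-05), and these calls held when any 1 library was left out. It was higher in OsNAC9 than in OsNAC6 (1.27, adjusted p = 0.00188), again in every such fit, and than in OsNAC5 (0.78, adjusted p = 0.0206). The OsNAC9 and OsNAC5 difference was no longer called without OsNAC5 replicate 1 (0.68, adjusted p = 0.15), OsNAC5 replicate 2 (0.88, adjusted p = 0.0659) or OsNAC9 replicate 2 (0.58, adjusted p = 0.128). From high to low, the means of the lines were 55.7 ± 11.0 FPKM in OsNAC9, 31.8 ± 3.20 FPKM in OsNAC5, 22.4 ± 3.46 FPKM in OsNAC6 and 10.3 ± 0.683 FPKM in OsNAC10, against 12.2 ± 0.160 FPKM in NT (SD, n = 2 each). The differences of OsNAC6 and OsNAC5 and of OsNAC10 and NT were not called.

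Os02g0580900 on chromosome 2, similar to peptide transporter PTR2, was not called against NT in any line, and was at opposite ends in OsNAC9 and OsNAC10. It was at 1.10 and 1.41 FPKM in OsNAC5, 1.13 and 1.17 FPKM in OsNAC6, 0.340 and 0.483 FPKM in OsNAC9 and 1.72 and 1.86 FPKM in OsNAC10, against 1.04 and 1.02 FPKM in NT. The OsNAC9 libraries were the lowest of all and the OsNAC10 libraries the highest. Against NT the change was -0.52 in OsNAC9 (adjusted p = 0.0105) and 0.46 in OsNAC10 (adjusted p = 0.0124), both under 1.5 fold at a pseudocount of 1. With a pseudocount of 0.1 both were called, at -1.15 and 0.75. The OsNAC10 change was also called with the transcript of the highest mean alone (0.76, limma adjusted p = 0.00503). Without OsNAC9 replicate 2 the OsNAC9 change was -0.60, past 1.5 fold. OsNAC10 exceeded OsNAC9 by 0.99 (adjusted p = 0.000476), in every fit that left out 1 library. OsNAC9 was lower than OsNAC5 (-0.67, adjusted p = 0.00846) and OsNAC6 (-0.61, adjusted p = 0.0161). The first of these was lost without OsNAC5 replicate 2 (-0.57, adjusted p = 0.0745) or OsNAC9 replicate 1 (-0.60, adjusted p = 0.0699), and the second without OsNAC9 replicate 1 (-0.54, adjusted p = 0.11) or replicate 2 (-0.68, adjusted p = 0.0563). The locus sum joins a transcript described as a peptide transporter with one described by a TGF-beta receptor region, a domain name that the annotation gives to some transporters.

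Os05g0338900 on chromosome 5, known only by the oligopeptide transporter domain, was at 4.34 and 5.14 FPKM in OsNAC5, 8.30 and 5.55 FPKM in OsNAC6, 3.65 and 5.16 FPKM in OsNAC9 and 8.48 and 10.2 FPKM in OsNAC10, against 6.36 and 5.63 FPKM in NT. Only the OsNAC10 libraries lay above all 8 others. It was higher in OsNAC10 than in OsNAC9 (0.95, adjusted p = 0.0137) and OsNAC5 (0.85, adjusted p = 0.0216), while its change against NT was 0.56 in OsNAC10 (adjusted p = 0.0573). The difference from OsNAC9 was lost without OsNAC9 replicate 1 (0.74, adjusted p = 0.0743) or OsNAC10 replicate 2 (0.82, adjusted p = 0.106), and that from OsNAC5 without any one of the OsNAC5 and OsNAC10 libraries (0.73 to 0.97, adjusted p = 0.0551 to 0.146). The 3 remaining calls were on loci picked out after their values had been seen. Os05g0431700 was lower in OsNAC10 than in OsNAC6 (-0.80, adjusted p = 0.012), Os02g0695900 was lower in OsNAC10 than in OsNAC5 (-0.67, adjusted p = 0.032), and Os01g0902700 was higher in OsNAC6 than in OsNAC5 (0.62, adjusted p = 0.0495). They were lost in 3, 4 and 9 of the 10 fits that left out 1 library.

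Some members carry RAP numbers close to those of other members, though other loci can lie between them. Taking RAP numbers within 1000 of each other as neighbours, 26 of the 53 members fell into 11 groups, 7 of 2 and 4 of 3 members, and 27 stood alone. In each of the 3 groups that held a member called against NT, 1 member was called. Whether neighbours differed in their change was not tested. How reads shared by similar neighbours were divided was not tested.

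The surroundings of Os01g0871600 were read from 26 loci of chromosome 1, of which 20 were tested. Next to it, Os01g0871500, described by the TGF-beta receptor region and not a member, was at 155 and 189 FPKM in OsNAC5, 255 and 179 FPKM in OsNAC6, 279 and 348 FPKM in OsNAC9 and 130 and 133 FPKM in OsNAC10, against 111 and 110 FPKM in NT. Every line library exceeded NT, and the OsNAC9 libraries were the highest, as for Os01g0871600. It was higher in OsNAC6 (0.94, adjusted p = 0.00508) and OsNAC9 (1.48, adjusted p = 0.000595), with 0.62 in OsNAC5 (adjusted p = 0.0671) and 0.25 in OsNAC10 (adjusted p = 0.309). A POT family locus a little further on, Os01g0871900, showed another order. It was at 12.2 and 13.4 FPKM in OsNAC5, 22.7 and 15.9 FPKM in OsNAC6, 12.3 and 14.8 FPKM in OsNAC9 and 20.8 and 21.6 FPKM in OsNAC10, against 9.85 FPKM in both NT libraries. It was higher in OsNAC6 (0.89, adjusted p = 0.00383) and OsNAC10 (1.03, adjusted p = 0.00158). This locus and Os01g0871500 were picked out after their values had been seen. Among other non-members, Os01g0871300 and Os01g0872700 were lower in OsNAC10 (-1.23 and -1.03), and Os01g0871800 in OsNAC9 and OsNAC10 (-0.61 in each). Os01g0872201 was higher in OsNAC6, OsNAC9 and OsNAC10 (1.34, 0.67 and 0.61) and Os01g0872600 in OsNAC10 (0.60). Of all loci, 6.23%, 5.17% and 5.39% were higher in OsNAC6, OsNAC9 and OsNAC10, and 8.07%, 5.58% and 11.2% lower. The member Os01g0871700 had at most 0.121 FPKM, and the member Os01g0872500 had changes of 0.30 to 0.55 without a call. In OsNAC10 it was called higher with a pseudocount of 0.1 (0.61), median centring (0.62), quantile normalization (0.60), the transcript with the highest mean (0.72) and without NT replicate 2 (0.61).

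**Figure D4:**
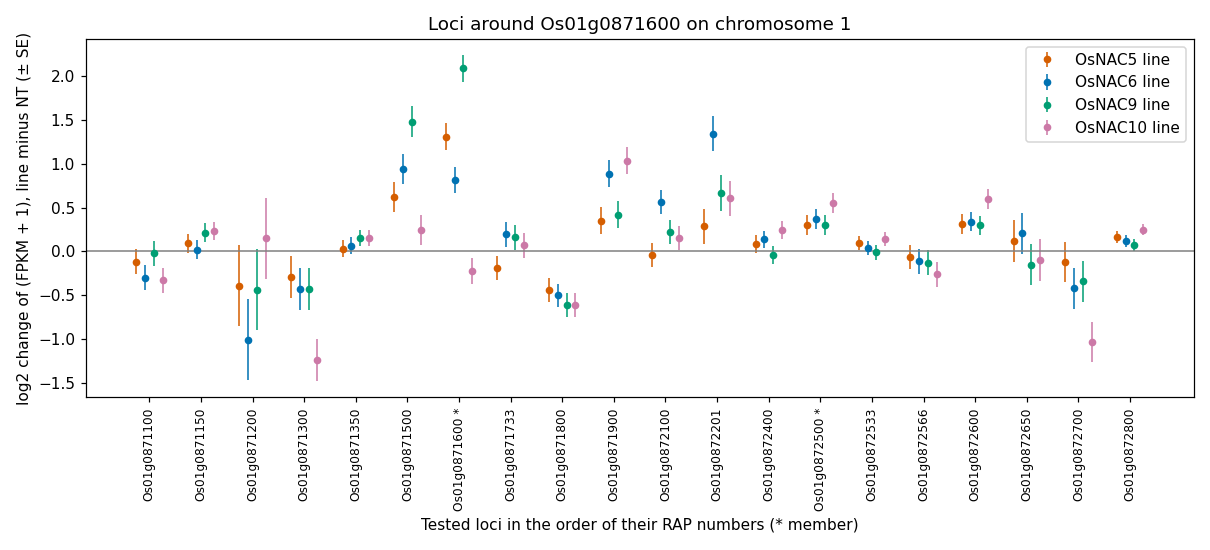
Log2 change of (FPKM + 1) against NT (± SE) for the 20 tested loci around Os01g0871600, in the order of their RAP numbers, with members starred and the lines by colour. Os01g0871500 and Os01g0871600 are both highest in the OsNAC9 line (1.48 and 2.09), and Os01g0871900 is highest in the OsNAC10 line (1.03).

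Other genes of nitrogen transport and assimilation were counted in the same fit, by description. Of 42 tested amino acid transporters, 2, 5, 4 and 2 were higher and 3, 6, 4 and 4 lower in OsNAC5, OsNAC6, OsNAC9 and OsNAC10. In that order, 2.12%, 6.23%, 5.17% and 5.39% of all loci were higher and 3.22%, 8.07%, 5.58% and 11.2% lower, which is the background for each of these lists. Of 6 tested ammonium transporters, which take up ammonium, 0, 0, 1 and 0 were higher and 0, 1, 0 and 2 lower in the same order. Loci whose description names nitrate or nitrite reductase, the first enzymes of nitrate assimilation, numbered 8 tested, with 0, 1, 0 and 1 higher and 3, 1, 2 and 1 lower. Among the 8 are Os02g0258900, described as a molybdenum cofactor synthesis protein, and Os01g0183100, described only by a domain of cytochrome cd1 nitrite reductases, neither of which was called. Glutamine synthetases and glutamate synthases, which bind ammonium into amino acids, had 13 tested loci with 1, 1, 1 and 0 higher and 2, 4, 3 and 5 lower. Their median change was -0.13, -0.42, -0.30 and -0.39, where that of the transporter family was 0.05, 0.18, 0.10 and 0.06. Outside the family, 24 tested loci were described by the TGF-beta receptor region, a name that the annotation gives to some transporters. Of these, 1, 5, 3 and 1 were higher and 2, 2, 3 and 4 lower. Of the 6 loci that the rule sets aside by identifier, 3 of which match its words, 0, 0, 1 and 0 were higher and 2, 4, 2 and 2 lower. These counts are descriptions, and no difference between lists was tested.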

How the data were processed

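The authors deposited FPKM values per annotated transcript for 10 libraries. According to the study, reads were cleared of adaptors, PCR duplicates and bases of low quality and mapped with TopHat to the IRGSP-1.0 genome with the RAP-DB annotation. Program versions and the program behind the FPKM values are not given in the sources used here. A second copy of the table held the same values (0 differences), and 0 sample columns were left unused. FPKM does not carry the number of reads, so intervals for counting error were not given.

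FPKM was summed per locus over 41635 transcripts of 37869 loci. Loci with a mean of at least 0.5 FPKM were tested on log2(FPKM + 1), a pseudocount of 1, with limma (version 3.58.1, R 4.3.3). All 10 libraries entered one linear model of group means, and eBayes was run with its trend option. Tests were two-sided. Adjusted p-values are limma's after Benjamini-Hochberg over 26687 loci, and a call needed 0.05 and 1.5 fold. The labels and the study call the replicates biological without naming separate pots or lines, so p-values measure the spread between these samples. The fit was tested on values simulated as normal on the log scale, which cannot show how well it suits FPKM data.

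Members and lists were chosen with earlier results of these data known. Members described by name are the 10 with the highest mean, up to 3 higher and 3 lower called members per line with separate groups and a mean of at least 1 FPKM, those called one way in all 4 lines, the 3 with the largest range among lines in the F test, and Os11g0235200 and Os01g0871600. Alternatives were the pseudocount, filters, scaling, call rule, samples in the fit, replicate block, trend, choice of transcript and each library left out. Fragment sequences come from the study's ChIP-Seq table. No gene coordinates are given, since the annotation at hand is of another assembly.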

Additional observations from a re-analysis of the deposited data

Results flagged for a closer look

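Os01g0871600 differed between lines in which its change against NT was called and the OsNAC10 line, in which it was not. The test of the difference itself gave a log2 change of -1.53 for OsNAC10 minus OsNAC5 (10.3 ± 0.683 FPKM against 31.8 ± 3.20 FPKM), -1.04 for OsNAC10 minus OsNAC6 (against 22.4 ± 3.46 FPKM) and -2.31 for OsNAC10 minus OsNAC9 (against 55.7 ± 11.0 FPKM; SD, 2 libraries each). Os05g0431700 differed in the same way, with -0.80 for OsNAC10 minus OsNAC6 (1.27 ± 0.0216 FPKM against 2.97 ± 0.526 FPKM, SD, 2 libraries each). The adjusted p-values from limma were 0.000345, 0.00428, 2.23e-05 and 0.012. The last of these 4 differences was lost without OsNAC6 replicate 1 (-0.66, adjusted p = 0.0596), OsNAC10 replicate 1 (-0.79, adjusted p = 0.0697) or OsNAC10 replicate 2 (-0.81, adjusted p = 0.0811).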

How the results depend on the processing

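With a pseudocount of 0.1 the members called were 4 higher and 2 lower in OsNAC10, 8 higher in OsNAC6 and 1 lower in OsNAC9, where 7.39%, 13.2%, 8.11% and 6.38% of all loci were. Median centring gave 5 higher and 0 lower in OsNAC10 (7.81% and 9.60% of all loci), quantile normalization 4 and 0 (6.33% and 9.88%), and the most abundant transcript per locus 3 higher in OsNAC10 (5.86%). At a threshold of 2 fold, 1 member was higher in OsNAC5 and 1 in OsNAC9 (0.854% and 1.76% of all loci), 0 were called in OsNAC6 (1.61% and 2.78%) and OsNAC10 (0.937% and 4.84%) in either direction, and 4 calls were made between lines. A fit of only the line and NT libraries called 0 lower in OsNAC6 (7.49% of all loci), and an unadjusted p gave 15 members that differed among lines (34.0%). Groups shared replicate numbers, and the deviations of same-numbered libraries correlated at -0.49 to 0.25. The sign differed between pairs of groups, and these values cannot settle whether the numbers pair the samples. With the replicate block 3 members differed among lines (13.7% of all loci), against 6 without it, 2 were higher in OsNAC5, against 3, the call lost being that of Os12g0638300 (0.65, adjusted p = 0.0588), and 12 calls were made between lines, against 13. The OsNAC6 replicates agreed least, and without both of them (a fit chosen after seeing the data) the counts of the other lines were the same. Leaving out one library each gave 1 to 3 members higher in OsNAC5, 4 to 8 in OsNAC6, 3 to 5 in OsNAC9 and 1 to 3 in OsNAC10, 0 lower in OsNAC5, 0 to 2 in OsNAC6 and 0 to 1 in OsNAC9 and OsNAC10, 2 to 15 differing among lines and 8 to 26 calls between lines. The highest of these last counts, 15 and 26, came without OsNAC6 replicate 2, where 37.5% of all loci differed among lines. Uncalled changes that were called elsewhere include OsNAC10 values of Os01g0142800 with centring (0.59), Os01g0960900 with a pseudocount of 0.1 (0.61), centring (0.64) and quantile normalization (0.60), and Os05g0338900 with centring (0.63) and quantile normalization (0.62), and the OsNAC6 value of Os06g0706400 with centring (0.60). Signs turned only for uncalled changes. These were Os03g0235300 (-0.0072 to 0.066), Os05g0431700 (-0.068 to 0.26) and Os06g0706400 (-0.11 to 0.18) in OsNAC5, turned without OsNAC5 replicate 2, and Os05g0338900 (-0.092 to 0.41) and Os10g0470700 (-0.11 to 0.60) in OsNAC6, turned without OsNAC6 replicate 1. Os06g0706400 in OsNAC5 also turned without NT replicate 1 (-0.019). The cause of these shifts was not tested. Outside fits that leave out one library, 779 of the member values kept direction and side of the threshold, 15 passed it only there and 18 no longer passed it. Centring moved the median change of all loci in OsNAC10 to 0.10. FPKM does not carry read numbers, and no counting error is given for loci under 1 FPKM.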
